A study of Mus musculus with 4 samples.

Results

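Transcripts of 6 genes of the TNF receptor superfamily, *Tnfrsf4*, *Tnfrsf9*, *Tnfrsf18*, *Tnfrsf1a*, *Tnfrsf1b* and *Cd27*, were followed through the CD4+ T cells of the liver and the cells sorted with them. They were taken by symbol from all genes counted, and all 6 were found in both single-cell libraries. One library came from WT mice and the other from Nr4a1 fl/fl Nr4a2 fl/fl Cd4Cre (dKO) mice, in which the Cre recombinase is driven by the Cd4 promoter, so that both genes are meant to be lost in T cells. Each was pooled from 2 male mice, and all animals had been given for 8 weeks a choline-deficient diet with 60 kcal% fat and 0.1% methionine, which induces steatohepatitis. The cells of the pooled mice cannot be told apart, so each genotype is 1 library without replicates, no test between genotypes was run, and the intervals given are exact 95% intervals for counting error only.

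Receptors of this family sit in the cell membrane, bind trimeric ligands of the TNF family and pass the signal to TRAF adaptors and, through them, to NF-κB. OX40 (*Tnfrsf4*), 4-1BB (*Tnfrsf9*), GITR (*Tnfrsf18*) and CD27 (*Cd27*) are costimulatory receptors that promote survival and division of T cells that have met antigen. OX40 and GITR are also known as surface markers of Foxp3+ regulatory T cells (Tregs). TNFR1 (*Tnfrsf1a*) carries a death domain and is found on most cells of the body, whereas TNFR2 (*Tnfrsf1b*) has none and is restricted largely to leukocytes and endothelium, with high levels on Tregs.

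The genes lie on a pair of chromosomes. On chromosome 4 of GRCm38 the GENCODE annotation places *Tnfrsf4* (ENSMUSG00000029075) at chr4:156013843-156016612 on the plus strand and *Tnfrsf18* (ENSMUSG00000041954) at chr4:156026164-156028895 on the same strand, 9551 bases further on. *Tnfrsf9* (ENSMUSG00000028965, chr4:150914562-150946102, plus strand) and *Tnfrsf1b* (ENSMUSG00000028599, chr4:145213463-145246870, minus strand) lie farther away on that chromosome. *Tnfrsf1a* (ENSMUSG00000030341, chr6:125349362-125362484, plus strand) and *Cd27* (ENSMUSG00000030336, chr6:125232622-125237010, minus strand) are 112351 bases apart on chromosome 6, with *Ltbr*, another receptor of the family, between them. An antisense gene that is also counted, *Gm16008*, overlaps exons of *Tnfrsf18* on the other strand, so counts of *Tnfrsf18* depend on the strand being read correctly.

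The stretches before the annotated starts of the 4 genes that were higher in the library labelled dKO in most T cell classes, described further on, are shown here because these genes were higher together. They come from RefSeq on GRCm38.p6 and are written 5′ to 3′ on the strand of the gene. For *Tnfrsf18* the stretch ends at the first GENCODE exon. Those of *Tnfrsf4* (chr4:156013445-156013694, plus strand), *Tnfrsf9* (chr4:150919905-150920154, plus strand), *Tnfrsf18* (chr4:156026072-156026163, plus strand) and *Cd27* (chr6:125237028-125237277, minus strand) read as follows, with a short piece before a second annotated start of *Tnfrsf9* (chr4:150927947-150927976, plus strand) in which capitals mark the NF-κB matches.
Tnfrsf4: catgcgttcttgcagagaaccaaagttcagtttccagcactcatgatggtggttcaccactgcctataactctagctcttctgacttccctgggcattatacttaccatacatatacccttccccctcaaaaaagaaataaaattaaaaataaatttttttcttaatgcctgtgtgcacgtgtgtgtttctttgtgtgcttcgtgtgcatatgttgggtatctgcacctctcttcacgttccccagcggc
Tnfrsf9: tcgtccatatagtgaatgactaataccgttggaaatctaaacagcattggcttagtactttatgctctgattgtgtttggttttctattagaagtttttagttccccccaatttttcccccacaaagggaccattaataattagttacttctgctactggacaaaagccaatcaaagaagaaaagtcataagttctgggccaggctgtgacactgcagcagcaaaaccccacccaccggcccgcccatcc
Tnfrsf9, second start: agagcagctGGGGATTTCCCaggaggccct
Tnfrsf18: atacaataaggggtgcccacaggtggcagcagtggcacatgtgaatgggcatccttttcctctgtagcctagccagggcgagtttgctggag
Cd27: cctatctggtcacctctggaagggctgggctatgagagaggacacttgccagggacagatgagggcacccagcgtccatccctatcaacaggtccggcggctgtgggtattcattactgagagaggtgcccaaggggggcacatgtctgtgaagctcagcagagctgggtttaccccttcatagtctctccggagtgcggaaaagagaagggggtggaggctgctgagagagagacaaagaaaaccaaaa
The 250 bases before each RefSeq start of the 6 genes were searched on both strands. The motifs were the binding motif of the Nr4a receptors (NBRE, AAAGGTCA), the AP-1 motif (TGANTCA) and the NF-κB consensus. Some RefSeq starts differ from the GENCODE starts given above, and both windows of *Tnfrsf9* lie inside its GENCODE span. Where the GENCODE start lies elsewhere, the bases before it were not searched in full. Before the second start of *Tnfrsf9*, a pair of overlapping NF-κB matches lay from 43 to 33 bases ahead of the start and an AP-1 match, TGAGTCA, from 15 to 9 bases ahead of it, both within an annotated exon of another *Tnfrsf9* transcript. No other match was found in these windows. Of 32851 windows of this length before annotated starts, 1.34% held the NBRE, 6.75% the AP-1 motif and 3.90% the NF-κB consensus, and a match in the letters does not show binding.

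Cells were classed by marker genes, none of which was a member. After filtering, the library labelled WT held 10556 cells and the library labelled dKO 17462 cells, with a median of 1679 and 1685 unique molecular identifiers (UMIs, each standing for 1 captured RNA molecule) per cell. A Foxp3 UMI in a T cell outside the cell cycle defined 418 Foxp3+ cells in the library labelled WT, against 3099 in the library labelled dKO, which is 3.96% and 17.7% of all cells. The conventional T cells, which are outside the cell cycle, have no Foxp3 UMI and do not carry *Ikzf2* with *Ctla4*, numbered 6027 and 5903 and were divided into 7 classes, of which cells with both *Ifng* and *Il17a* or *Il17f* were too few for a value. In spite of the sort, 1647 and 4101 plasmacytoid dendritic cells and 431 and 573 myeloid cells were present.

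Several properties of the libraries bear on the values. *Nr4a1*, a gene the knockout targets, was at 725 CPM (UMIs of the gene per 1000000 UMIs of the group) in the library labelled WT, against 1659 CPM in the library labelled dKO over all cells, and *Nr4a2* at 183 and 306 CPM, against the labels, although counts per gene do not show whether the floxed exons are present. *Cd4* was at 222 CPM in Foxp3+ cells of the library labelled WT, against 941 CPM in those of the library labelled dKO, and the summed genes of the T cell receptor complex at 3375 and 4460 CPM. In Foxp3+ cells *Cd8a* was at 0 in both libraries, while both CD8 genes summed to 16.2 and 20.9 CPM. The endothelial markers summed to 98.8 and 48.4 CPM, with *Stab2* at 0 in both libraries and *Kdr* at 0 in the library labelled WT, and the summed B cell markers were at 23.8 and 21.4 CPM, the plasmacytoid dendritic markers at 13.3 and 20.8 CPM and the myeloid markers at 47.5 and 57.8 CPM. The libraries shared 245 cell barcodes and no T cell clonotype. The part of these differences in the results that follow was not tested.

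The costimulatory receptors on Foxp3+ cells came first. *Tnfrsf4* in the library labelled WT was at 888 CPM (832 to 947) in Foxp3+ cells, and in the library labelled dKO at 2185 CPM (2148 to 2223), 2.46-fold higher. *Tnfrsf9* was at 537 CPM (493 to 583) and 1153 CPM (1126 to 1181), 2.15-fold higher. *Tnfrsf18* was at 525 CPM (483 to 571) and 1183 CPM (1156 to 1211), 2.25-fold higher. Thus the 3 genes differed by nearly the same factor, and for none of them did the intervals of the libraries overlap. *Cd27*, whose ligand is CD70, was at 118 CPM (98.0 to 140.5) and 251 CPM (238 to 264), a 2.13-fold difference.

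The receptors of TNF itself differed less. *Tnfrsf1b* was at 263 CPM (233 to 296) in Foxp3+ cells of the library labelled WT, against 333 CPM (318 to 348) in those of the library labelled dKO, 1.26-fold higher. *Tnfrsf1a* was at 26.6 CPM (17.7 to 38.4) and 21.1 CPM (17.6 to 25.1), and the interval of its log2 ratio, −0.93 to 0.31, held 0. By these values 4 of the 6 genes were at least 1.5-fold higher in Foxp3+ cells of the library labelled dKO, where 9.71% of the 6526 genes with at least 20 CPM were. None was lower by that factor, as 10.2% of those genes were. The median log2 ratio was 1.10 over the 6 genes and 0.01 over all genes.

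**Figure D1:**
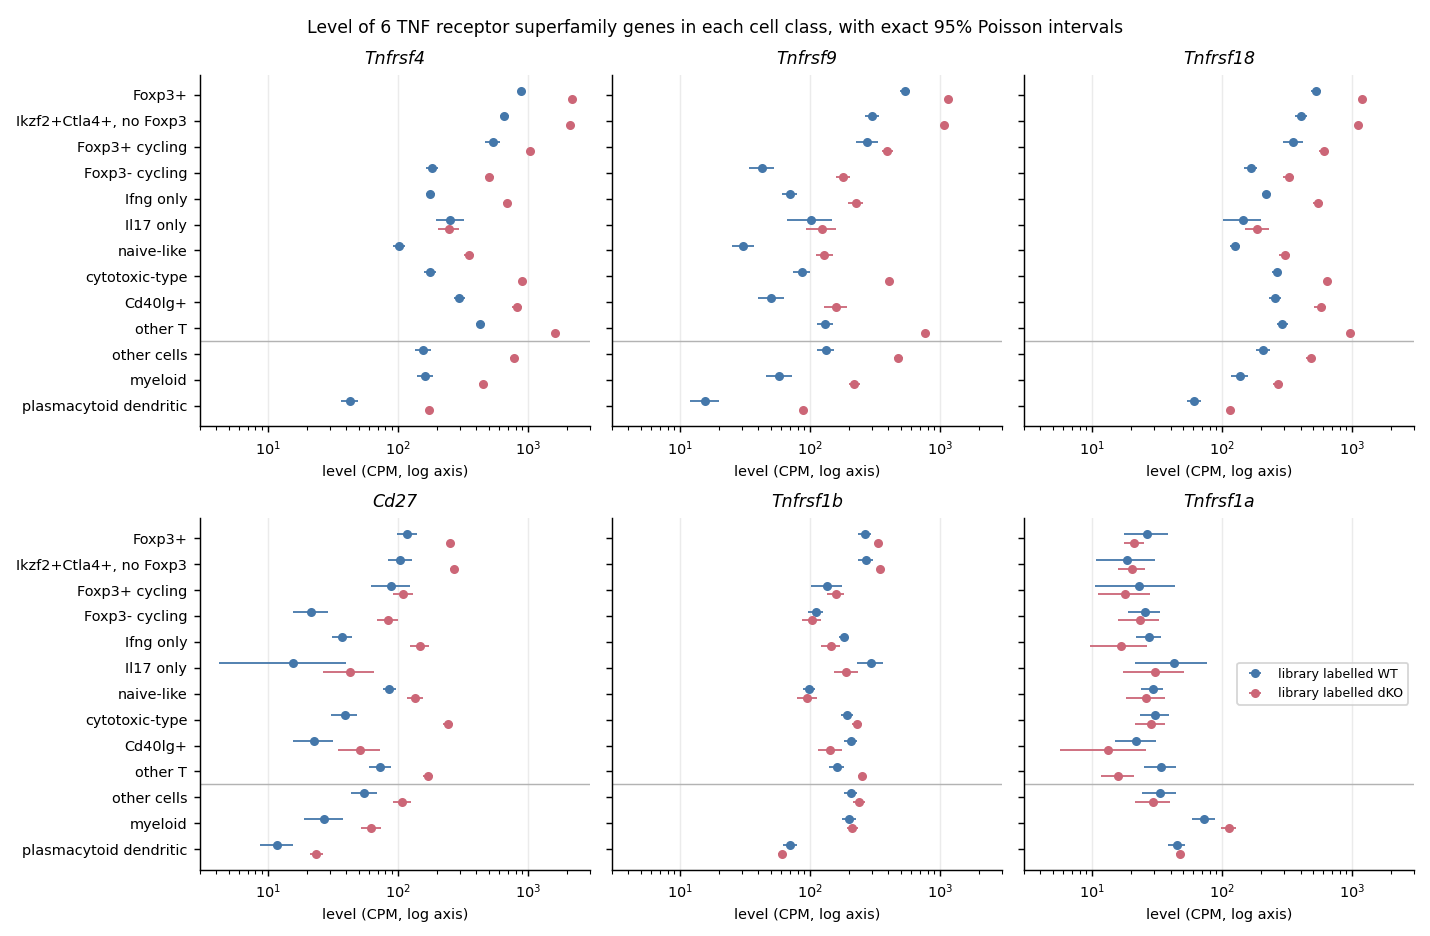
Level of each gene (CPM, log axis) in 13 cell classes of the library labelled WT (blue) and the library labelled dKO (red), with exact 95% Poisson intervals as bars; the classes above the line are T cells. *Tnfrsf4*, *Tnfrsf9* and *Tnfrsf18* were highest in Foxp3+ cells in both libraries, and *Tnfrsf1a* in myeloid cells, at 71.9 and 112 CPM.

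The order of the classes was then read for each gene. *Tnfrsf4* was highest in Foxp3+ cells of both libraries, followed by cells with *Ikzf2* and *Ctla4* but no Foxp3 UMI, at 658 CPM (605 to 714) in the library labelled WT, against 2094 CPM (2047 to 2141) in the library labelled dKO. Both markers are known from Tregs, and Helios, coded by *Ikzf2*, is a transcription factor of the Ikaros family. In the library labelled WT the dividing Foxp3+ cells, at 533 CPM (463 to 610), could not be separated from them, and *Tnfrsf4* was lower in every other class, down to 102 CPM (91.7 to 112.7) in naive-like T cells and 42.4 CPM (36.4 to 49.1) in plasmacytoid dendritic cells. In the library labelled dKO the T cells left in no other class came next, at 1610 CPM (1564 to 1657), and plasmacytoid dendritic cells were again last, at 174 CPM (167 to 181). The Il17 only class, 125 and 265 cells, was the exception among T cells, with 252 CPM (195 to 322) and 246 CPM (204 to 294).

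*Tnfrsf9* and *Tnfrsf18* followed a like order. Next to Foxp3+ cells, *Tnfrsf9* stood at 299 CPM (263 to 337) and 1074 CPM (1041 to 1109) in the cells with *Ikzf2* and *Ctla4*, and at 30.5 CPM (25.1 to 36.7) and 128 CPM (110 to 149) in naive-like cells. In plasmacytoid dendritic cells it was at 15.5 CPM (11.9 to 19.7) and 88.8 CPM (83.9 to 93.9). *Tnfrsf18* stood at 404 CPM (363 to 449) and 1115 CPM (1081 to 1150) in the cells with *Ikzf2* and *Ctla4* and at 125 CPM (114 to 137) and 303 CPM (275 to 334) in naive-like cells. In the order of *Tnfrsf18* in the library labelled WT, from dividing Foxp3+ cells to myeloid cells, each class overlapped its neighbour in the order, so that the middle of this order is not resolved. Plasmacytoid dendritic cells were last for both genes in both libraries.

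For *Cd27* the leading classes of the library labelled WT lay close together. There Foxp3+ cells at 118 CPM, the cells with *Ikzf2* and *Ctla4* at 103 CPM (83.0 to 127.2), dividing Foxp3+ cells at 88.9 CPM (61.9 to 123.6) and naive-like cells at 85.9 CPM (76.6 to 95.9) could not be separated from their neighbours. In the library labelled dKO the first 3 places went to the cells with *Ikzf2* and *Ctla4* at 267 CPM (251 to 285), Foxp3+ cells at 251 CPM and cytotoxic-type T cells at 244 CPM (223 to 266). Cytotoxic-type cells, which carry genes such as *Nkg7*, *Fasl* and *Gzmb*, had been at 39.0 CPM (30.8 to 48.7) in the library labelled WT, which gave the highest ratio of *Cd27* between the libraries among the T cell classes. In this class *Ikzf2* was at 74.9 and 321 CPM and *Ctla4* at 227 and 857 CPM.

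*Tnfrsf1b* had UMIs in each of the 13 classes, with the lowest level in plasmacytoid dendritic cells at 70.0 CPM (62.2 to 78.5) and 60.5 CPM (56.4 to 64.7). Its leading classes in the library labelled WT were Il17 only at 291 CPM (229 to 365), the cells with *Ikzf2* and *Ctla4* at 268 CPM (235 to 305) and Foxp3+ cells at 263 CPM, with overlapping intervals. In the library labelled dKO the cells with *Ikzf2* and *Ctla4* at 343 CPM (324 to 363) and Foxp3+ cells led, and Il17 only was seventh at 189 CPM (153 to 232). Myeloid cells were at 199 CPM (175 to 225) and 211 CPM (191 to 232), and naive-like cells of the library labelled WT at 97.4 CPM (87.5 to 108.1), with an overlapping interval of 79.2 to 112.9 in the library labelled dKO. *Tnfrsf1a* was the sole gene of the set that was highest outside T cells, at 71.9 CPM (58.1 to 88.1) and 112 CPM (97.7 to 127.7) in myeloid cells and 44.5 CPM (38.4 to 51.4) and 47.4 CPM (43.8 to 51.2) in plasmacytoid dendritic cells. Over the 10 T cell classes it lay between 13.2 and 42.7 CPM, and neighbouring classes were not separated.

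Foxp3+ cells were next set against conventional T cells of the same library. *Tnfrsf9* was 3.02 higher on the log2 scale (2.86 to 3.17) in the library labelled WT, against 1.43 higher (1.37 to 1.48) in the library labelled dKO. *Tnfrsf4* was 2.14 higher (2.03 to 2.25) and 1.15 higher (1.11 to 1.19), and *Tnfrsf18* was 1.33 and 0.86 higher. All 3 were therefore enriched in Foxp3+ cells of both libraries, by a smaller factor in the library labelled dKO, where the intervals did not reach those of the library labelled WT. In the same comparison *Ikzf2* was 11.1-fold and 3.52-fold higher and *Ctla4* 5.79-fold and 3.03-fold, so these factors were smaller in the library labelled dKO too. Cells with *Ikzf2* and *Ctla4* together were kept out of the conventional class, so the factors of these 2 Treg markers depend in part on that gate. The part of these markers in the smaller factors of the receptors was not tested. *Cd27* was 1.13 and 0.61 higher and *Tnfrsf1b* 0.71 and 0.76 higher, while *Tnfrsf1a* differed by −0.13 and −0.01. In all, 5 of the 6 genes were at least 1.5-fold higher in Foxp3+ cells in each library, where the share of all genes was 9.51% of 6435 in the library labelled WT, against 6.93% of 6335 in the library labelled dKO. None was lower by that factor, beside 4.74% and 3.84% of genes. The count of 5 fell to 4 in the library labelled dKO where *Cd27* was under 1.5-fold, at a log2 ratio of 0.52 with TMM scaling, 0.58 with the mean of each cell's CPM and 0.50 with at least 2 Foxp3 UMIs per Foxp3+ cell, and in the library labelled WT where *Tnfrsf1b* was at 0.53 with 1 cell per clonotype. Median log2 ratios of the 6 genes were 1.23 and 0.81, against 0.06 and 0.08 for all genes.

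A Foxp3+ cell outside the cell cycle whose Foxp3 RNA was not captured counts as conventional here unless it carried *Ikzf2* with *Ctla4*, and how many there are was not measured. Against naive-like cells alone the log2 ratio of *Tnfrsf4* was 3.13 (2.95 to 3.30) in the library labelled WT, against 2.64 in the library labelled dKO. For *Tnfrsf9* it was 4.14 (3.84 to 4.45) and 3.17 (2.95 to 3.39). For *Tnfrsf18* it was 2.07 (1.89 to 2.25) and 1.96 (1.82 to 2.11). The gap between the libraries was thus narrower against this class, and for *Tnfrsf18* the intervals overlapped. Against Ifng only cells, which are Th1-like by that cytokine, *Cd27* was 1.66 higher (1.29 to 2.03) and 0.78 higher (0.53 to 1.03) in Foxp3+ cells.

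Within Foxp3+ cells the receptors differed by state, and the states made up different parts of the class. Central-type cells numbered 98 of 418 in the library labelled WT, against 235 of 3099 in the library labelled dKO, *Il1rl1*+ cells 100 and 299, *Klrg1*+ cells 52 and 1047 and the remaining cells 168 and 1518. Central-type cells, which carry genes such as *Ccr7*, *Lef1*, *Tcf7* and *S1pr1* and lack *Il1rl1*, were lowest for *Tnfrsf4*, *Tnfrsf9* and *Tnfrsf18* in both libraries, with *Tnfrsf4* at 604 CPM in the library labelled WT, against 1213 CPM in the library labelled dKO. Cells with *Il1rl1*, the IL-33 receptor ST2, had *Tnfrsf4* at 1150 and 2505 CPM, which is 0.93 (0.68 to 1.18) and 1.05 (0.93 to 1.16) higher on the log2 scale than central-type cells. In the same comparison *Tnfrsf9* was 1.14 (0.80 to 1.49) and 1.18 (1.02 to 1.34) higher and *Tnfrsf18* was 0.75 (0.42 to 1.09) and 0.86 (0.70 to 1.02) higher. The step from central-type to *Il1rl1*+ cells was thus alike in the libraries for these 3 genes, with overlapping intervals. *Klrg1*+ cells, without *Il1rl1*, were 0.84 (0.51 to 1.17) and 0.96 (0.85 to 1.06) above central-type cells for *Tnfrsf4* and 1.36 (0.95 to 1.77) and 0.89 (0.75 to 1.04) above them for *Tnfrsf9*.

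*Tnfrsf1b* and *Cd27* were compared in the same way. *Tnfrsf1b* was 0.53 (0.08 to 0.99) and 0.59 (0.29 to 0.90) higher in *Il1rl1*+ than in central-type cells, and 0.72 (0.13 to 1.29) and 0.77 (0.52 to 1.04) higher in *Klrg1*+ cells, near the 0.62 (0.17 to 1.07) and 0.83 (0.69 to 0.97) of *Tnfrsf18* there. *Cd27* differed by 0.15 (−0.59 to 0.88) and 0.02 (−0.35 to 0.39) in *Il1rl1*+ cells, with intervals around 0, and by −0.70 (−2.12 to 0.50) and 0.60 (0.31 to 0.90) in *Klrg1*+ cells. In the Foxp3+ cells of none of these states *Cd27* was 0.80 (0.13 to 1.48) and 0.81 (0.53 to 1.10) above central-type cells, and *Tnfrsf1b* 0.09 (−0.41 to 0.59) and 0.80 (0.55 to 1.07). Between the libraries, *Tnfrsf4* was 2.18-fold higher in *Il1rl1*+ cells, 2.01-fold in central-type cells, 2.18-fold in *Klrg1*+ cells and 2.60-fold in the remaining cells of the library labelled dKO, so the difference was present within each state. For *Tnfrsf9* the factors were 2.05 in *Il1rl1*+ cells, 1.44 in *Klrg1*+ cells and 2.45 in the remaining cells, and central-type cells were at 323 and 645 CPM. The log2 ratio in *Klrg1*+ cells was 0.53 (0.23 to 0.84). *Tnfrsf1b* differed by a log2 ratio of −0.00 (−0.35 to 0.35) in *Il1rl1*+ cells, −0.06 (−0.48 to 0.36) in central-type cells and −0.01 (−0.47 to 0.48) in *Klrg1*+ cells, and by 0.65 (0.29 to 1.03) in the remaining Foxp3+ cells.

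Clones could be followed where cells had been given a clonotype, and 2178 and 2422 cells of the libraries had a clonotype, out of 3459 and 4101 with a TRB chain. No clone reached 10 cells among the Foxp3+ cells and the cells with *Ikzf2* and *Ctla4* of the library labelled WT. Of the library labelled dKO, the clone with the most such cells, 154 of them, had *Tnfrsf4* at 3026 CPM (2820 to 3242), above the 1914 CPM (1851 to 1978) of the 759 cells in smaller clones. Its *Tnfrsf18* was at 1573 CPM (1426 to 1731) against 1047 CPM (1001 to 1095), while its *Tnfrsf9* at 1005 CPM (888 to 1133) and its *Cd27* at 226 CPM (172 to 291) were within the intervals of the smaller clones, 1000 CPM (955 to 1047) and 246 CPM (224 to 269). A clone of 16 cells had *Tnfrsf4* at 1267 CPM (892 to 1746), below the smaller clones, *Tnfrsf9* at 1609 CPM (1183 to 2140), above them, and *Tnfrsf18* at 1541 CPM (1124 to 2062), above them as in the first clone. By counting intervals alone, which leave out the spread between cells, the balance of these receptors thus differed between these clones. The cells of a clone descend from 1 cell and hence from 1 mouse, and are no replicates. The mix of Foxp3+ states and of cells with *Ikzf2* and *Ctla4* was not matched between clones, and its part in these values was not tested.

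In the T cells outside the Foxp3+ class the libraries differed as well. Over all conventional T cells *Tnfrsf4* was at 202 CPM in the library labelled WT, against 985 CPM in the library labelled dKO, *Tnfrsf9* at 66.3 and 429 CPM, *Tnfrsf18* at 209 and 651 CPM and *Cd27* at 54.0 and 164 CPM. The log2 ratios were 2.29 (2.22 to 2.35), 2.69 (2.58 to 2.81), 1.64 (1.57 to 1.71) and 1.61 (1.47 to 1.74). For *Tnfrsf1b* the ratio was 0.28 (0.19 to 0.38) and for *Tnfrsf1a* −0.45 (−0.72 to −0.19). Of the 6 genes 4 were at least 1.5-fold higher, as were 5.96% of 6275 genes, and none was lower by that factor, as were 5.16%. The median was 1.62, against −0.01 over all genes. In the same conventional cells the Treg markers *Ikzf2*, at 80.8 and 334 CPM, and *Ctla4*, at 244 and 784 CPM, were 4.13-fold and 3.22-fold higher in the library labelled dKO, and their part in these ratios was not tested.

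**Figure D2:**
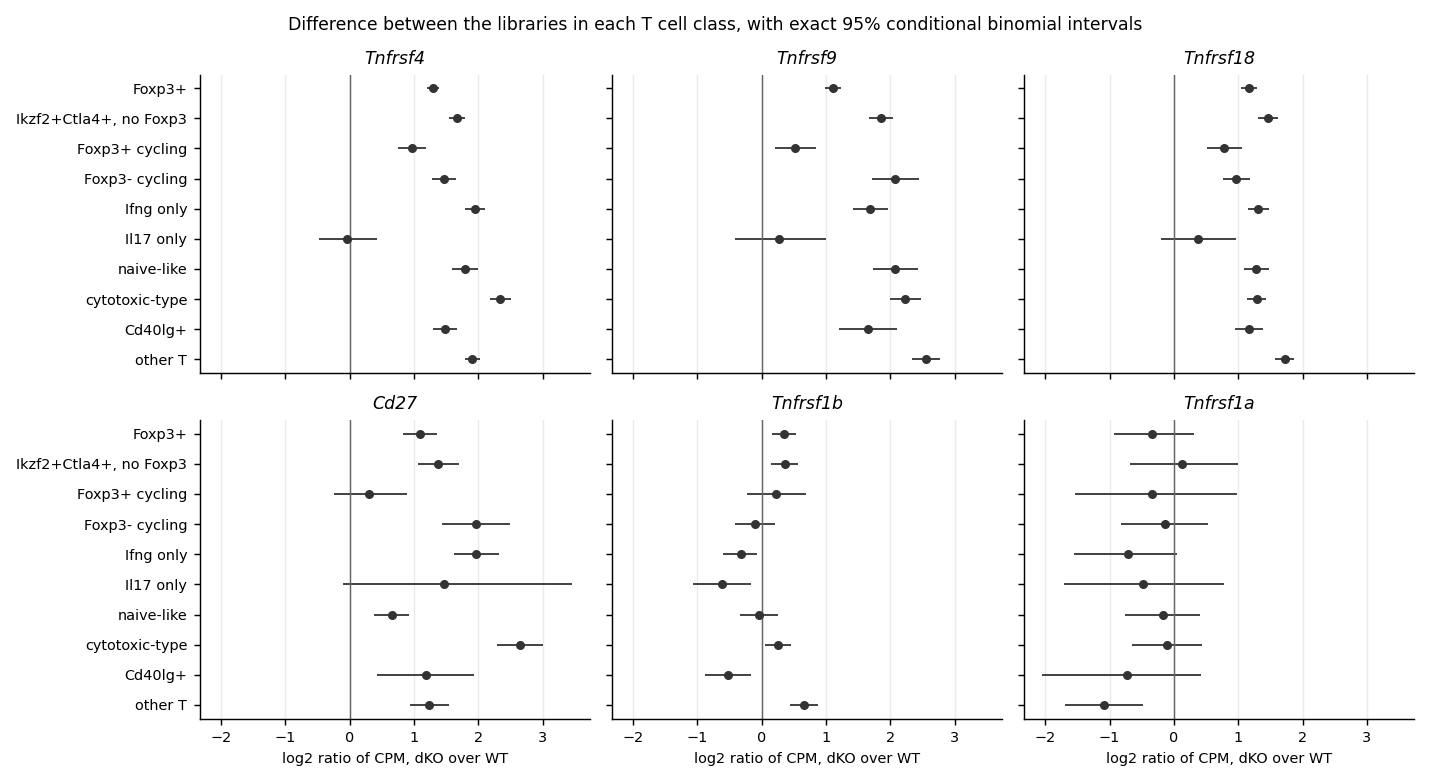
Log2 ratio of CPM, the library labelled dKO over the library labelled WT, for each gene in 10 T cell classes, with exact 95% conditional binomial intervals as bars and a line at 0. *Tnfrsf4*, *Tnfrsf9* and *Tnfrsf18* lie to the right of 0 in 9 classes each and *Cd27* in 8, and *Tnfrsf1b* lies on both sides.

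Class by class, the intervals of *Tnfrsf4*, *Tnfrsf9* and *Tnfrsf18* lay above 0 in 9 of 10 T cell classes and spanned 0 in the remaining one, Il17 only. For *Tnfrsf4* the log2 ratio ran from −0.03 (−0.48 to 0.42) in Il17 only cells to 2.34 (2.18 to 2.51) in cytotoxic-type cells. For *Tnfrsf9* it ran from 0.28, with an interval that held 0, to 2.55 (2.34 to 2.77) in the T cells left in no other class, and for *Tnfrsf18* from 0.37 (−0.20 to 0.96) to 1.73 (1.58 to 1.87) in that class. The ratios of Foxp3+ cells were among the lower ones for *Tnfrsf4* and *Tnfrsf9*. *Ikzf2* was 4.28-fold higher in cytotoxic-type cells of the library labelled dKO and 4.07-fold in the T cells left in no other class, and *Ctla4* 3.77-fold and 3.46-fold. In plasmacytoid dendritic cells, the measure of free RNA used further on, the log2 ratio was 2.04 (1.82 to 2.27) for *Tnfrsf4*, 2.52 (2.16 to 2.90) for *Tnfrsf9*, 0.92 (0.73 to 1.11) for *Tnfrsf18* and 1.02 (0.58 to 1.48) for *Cd27*. The part of these markers and of free RNA in the ratios outside Foxp3+ cells was not tested. *Cd27* lay above 0 in 8 classes, with intervals that spanned 0 in dividing Foxp3+ cells and Il17 only cells and a ratio of 2.64 (2.30 to 3.01) in cytotoxic-type cells. In the same 10 classes *Nr4a1* lay above 0 in 10 and *Cd3e*, a chain of the T cell receptor complex, in 7.

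*Tnfrsf1b* had no common direction over the classes. Its interval lay above 0 in 4 classes and below 0 in 3. It was above in Foxp3+ cells, the cells with *Ikzf2* and *Ctla4*, cytotoxic-type cells and the T cells left in no other class, and below in Ifng only, Il17 only and Cd40lg+ cells. In Ifng only cells it was at 182 CPM (167 to 197) and 144 CPM (122 to 170), and in Cd40lg+ cells at 205 CPM (183 to 230) and 143 CPM (115 to 177). The log2 ratio of *Tnfrsf1a* was below 0 in each class except the cells with *Ikzf2* and *Ctla4*, where it was 0.12. Its interval spanned 0 in 9 classes and lay below 0 in the T cells left in no other class, at 33.7 CPM (25.1 to 44.3) and 15.8 CPM (11.6 to 21.1).

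The makeup of the T cells differed between the libraries, and a value over all T cells joins that difference to the one within classes. Over all T cells *Tnfrsf4* was at 275 CPM in the library labelled WT, against 1502 CPM in the library labelled dKO, a log2 ratio of 2.45. With both libraries set to the mean class shares it was 1.64. For *Tnfrsf9* the ratio went from 2.74 to 1.68, for *Tnfrsf18* from 1.86 to 1.35 and for *Cd27* from 1.80 to 1.38. Equal class shares therefore lowered the ratios of these 4 genes and left them above 1 on the log2 scale. For *Tnfrsf1b* the ratio went from 0.61 to 0.21, and for *Tnfrsf1a* from −0.41 to −0.43.

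**Figure D3:**
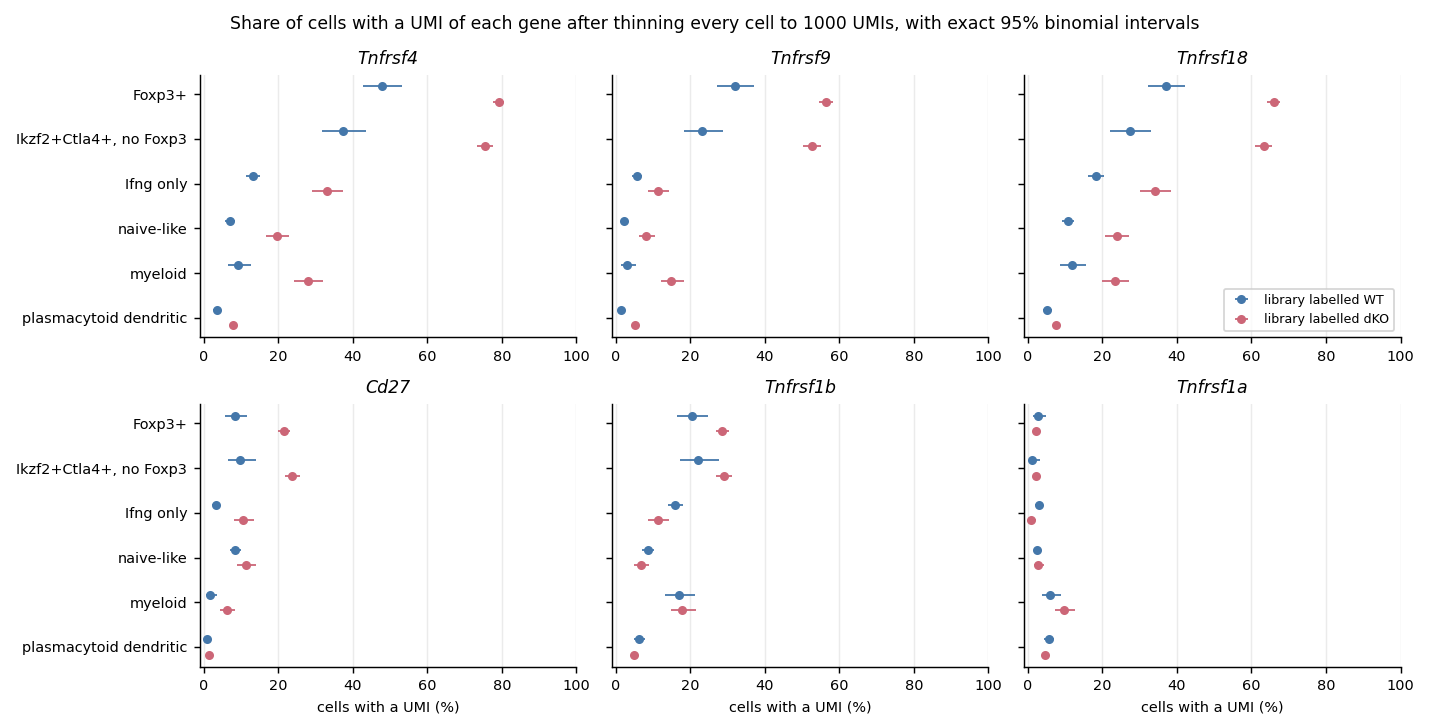
Share of cells (%) with at least 1 UMI of each gene in 6 cell classes of the library labelled WT (blue) and the library labelled dKO (red), after every cell was thinned to 1000 UMIs, with exact 95% binomial intervals as bars. *Tnfrsf4* was found in 48.0% and 79.1% of Foxp3+ cells and in 3.47% and 7.93% of plasmacytoid dendritic cells.

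The share of cells with a UMI was compared at equal depth, with 1000 UMIs drawn from every cell and cells of lower depth dropped. Of the Foxp3+ cells this left 369 in the library labelled WT, with a median of 2204 UMIs before thinning, and 2570 in the library labelled dKO, with a median of 1802. *Tnfrsf4* was found in 48.0% (42.8 to 53.2) and 79.1% (77.5 to 80.7) of them, *Tnfrsf9* in 32.0% (27.2 to 37.0) and 56.4% (54.5 to 58.3), and *Tnfrsf18* in 37.1% (32.2 to 42.3) and 66.0% (64.1 to 67.8). Plasmacytoid dendritic cells served as the measure of free RNA, with medians of 2410 and 3074 UMIs, and there *Tnfrsf4* was found in 3.47% and 7.93%, *Tnfrsf9* in 1.37% and 5.02% and *Tnfrsf18* in 5.17% and 7.51% of cells. All 3 receptors were thus found in Foxp3+ cells many times more often than in that class. A TRB chain was found for 7.65% and 6.29% of all plasmacytoid dendritic cells, and doublets were kept. Free RNA and doublets with T cells were therefore not told apart in this measure. Without thinning, the shares in Foxp3+ cells were 68.9% and 87.4% for *Tnfrsf4*, 49.8% and 70.3% for *Tnfrsf9* and 57.9% and 81.0% for *Tnfrsf18*.

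*Cd27* was found in 8.40% (5.78 to 11.71) and 21.6% of Foxp3+ cells and in 0.81% and 1.54% of plasmacytoid dendritic cells, and without thinning in 22.7% and 32.9% of Foxp3+ cells. *Tnfrsf1b* was found in 20.3% (16.3 to 24.8) and 28.6% (26.8 to 30.3) of Foxp3+ cells and in 6.30% and 4.87% of plasmacytoid dendritic cells, and without thinning in 41.4% and 42.6% of Foxp3+ cells. *Tnfrsf1a* was found in 2.71% (1.31 to 4.93) and 2.06% (1.55 to 2.69) of Foxp3+ cells, under the 5.57% and 4.67% of plasmacytoid dendritic cells, which were next to myeloid cells in the level of this gene, not separated from Il17 only cells, and are not used as a measure of its free RNA. Unthinned, *Tnfrsf1a* was found in 5.74% and 3.78% of Foxp3+ cells. In naive-like cells *Tnfrsf4* was found in 6.92% (5.63 to 8.39) and 19.6% (16.7 to 22.8) and *Tnfrsf9* in 2.18% (1.48 to 3.10) and 8.17% (6.22 to 10.50), and only in the library labelled WT did the interval for *Tnfrsf9* overlap that of plasmacytoid dendritic cells, 0.80 to 2.19. Myeloid cells were a poorer reference, since genes of the T cell receptor complex summed to 1624 and 1287 CPM in them, against 568 and 450 CPM in plasmacytoid dendritic cells.

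**Figure D4:**
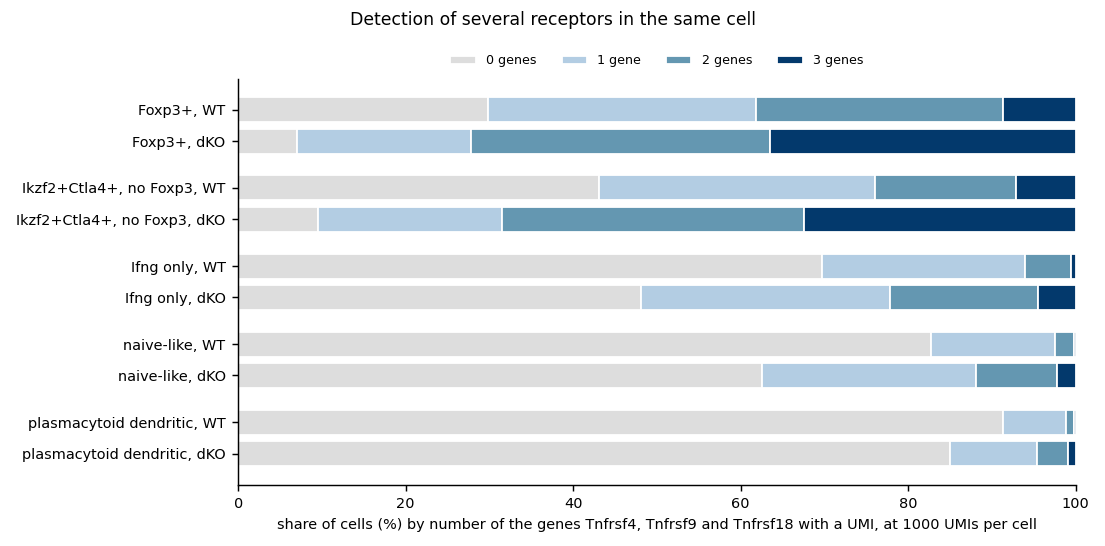
Cells (%) of 5 classes in each library by how many of *Tnfrsf4*, *Tnfrsf9* and *Tnfrsf18* had a UMI at 1000 UMIs per cell, from 0 (grey) to 3 (darkest blue). All 3 were found in 8.67% of Foxp3+ cells of the library labelled WT, against 36.5% of those of the library labelled dKO.

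Detection in the same cell was then counted at that depth. All 3 of *Tnfrsf4*, *Tnfrsf9* and *Tnfrsf18* had a UMI in 8.67% (6.01 to 12.02) of Foxp3+ cells of the library labelled WT, against 36.5% (34.6 to 38.4) in the library labelled dKO, and none of them in 29.8% (25.2 to 34.8) and 7.08% (6.12 to 8.14). The cells with *Ikzf2* and *Ctla4* came close, with all 3 in 7.12% (4.34 to 10.89) and 32.4% (30.2 to 34.7). In Ifng only cells all 3 were found in 0.56% (0.22 to 1.14) and 4.49% (2.90 to 6.61), and in plasmacytoid dendritic cells in 0.16% (0.02 to 0.58) and 0.93% (0.66 to 1.27). Within Foxp3+ cells the pair *Tnfrsf9* and *Tnfrsf18* was found together 1.30 times as often as the product of the separate shares in the library labelled WT, against 1.11 times as often in the library labelled dKO, and the pair *Tnfrsf4* and *Tnfrsf9* 1.24 and 1.08 times. These ratios are descriptions over cells of 1 library, in which depth beyond the thinning and cell state are shared. Their upper limit is 1 divided by the larger share, so it was lower in the library labelled dKO, where the shares were higher. The ratios of the libraries are therefore not on an equal scale.

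Across the 26 points given by 13 classes in 2 libraries, the Pearson correlation of log2(CPM + 1) was 0.97 for *Tnfrsf4* with *Tnfrsf18*, 0.95 for *Tnfrsf4* with *Tnfrsf9* and 0.92 for *Tnfrsf9* with *Tnfrsf18*. *Cd27* correlated with these genes at 0.81 to 0.86, *Tnfrsf1b* at 0.60 to 0.64 and *Tnfrsf1a* at −0.61 to −0.39. The points share libraries and their depth, so the values only describe likeness. Of 5538 genes compared, *Tnfrsf18*, *Serpinb6a* and *Tnfrsf9* were most like *Tnfrsf4*, and *Gm45716*, *Klrg1* and *Ttn* were most like *Tnfrsf9* (0.96 each). For *Tnfrsf18* they were *Tnfrsf4*, *Pglyrp1* (0.93) and *Tigit* (0.93), the latter an inhibitory receptor of Tregs. *Cd27* was nearest to *Izumo1r* (0.91), the folate receptor FR4 of Tregs, *4930417O13Rik* (0.90) and *Gm45716* (0.89). For *Tnfrsf1b* they were *Mdfic* (0.92), *Rgs2* (0.90) and *Got1* (0.90), and for *Tnfrsf1a* *Pitpna* (0.89) and the myeloid genes *Nfam1* (0.87) and *Pirb* (0.86).

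The ligands of these receptors were mostly rare in the sorted cells. *Tnfsf18*, the ligand of GITR, had at most 1 UMI in any class, *Tnfsf4*, the ligand of OX40, at most 13.2 CPM (5.69 to 25.95) and *Cd70*, the ligand of CD27, at most 16.5 CPM (7.89 to 30.27), the last 2 in Cd40lg+ cells of the library labelled dKO. *Tnfsf9*, the ligand of 4-1BB, reached 40.4 CPM (30.5 to 52.4) in cells of no named class of the library labelled WT, with 33.2 CPM (23.0 to 46.4) in Ifng only cells of the library labelled dKO. *Tnf*, which binds TNFR1 and TNFR2, was at 118 CPM (107 to 131) and 83.9 CPM (67.1 to 103.7) in Ifng only cells and at 46.6 CPM (34.4 to 61.5) and 30.3 CPM (26.0 to 35.1) in Foxp3+ cells. Thus *Tnf* was lower in the library labelled dKO in both classes. Over all conventional T cells it was at 82.6 CPM (77.6 to 87.8) and 52.1 CPM (47.4 to 57.2). Its value was lower in that library in every class but Cd40lg+ and plasmacytoid dendritic cells. In Cd40lg+ cells it stood at 93.1 CPM (78.1 to 110.0) and 95.5 CPM (72.5 to 123.4). In plasmacytoid dendritic cells it was higher in the library labelled dKO, at 66.0 CPM (58.4 to 74.2) and 92.8 CPM (87.8 to 98.0). *Ltb*, which codes for lymphotoxin beta, was at 714 CPM (663 to 766) and 1081 CPM (1054 to 1107) in Foxp3+ cells. *Lta*, coding for lymphotoxin alpha, a further ligand of both TNF receptors, was at 25.7 and 8.37 CPM there. Lymphotoxin beta acts mainly through the receptor coded by *Ltbr*, which is not among the 6 genes, although *Ltb* was listed as a ligand. Of the 7 genes listed as ligands 3 had at least 20 CPM in this comparison, with a median log2 ratio of −0.62. In the library labelled dKO 1 of them, *Ltb*, was at least 1.5-fold higher and 2, *Tnf* and *Lta*, were lower. Of all genes 9.71% were higher and 10.2% lower.

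**Figure D5:**
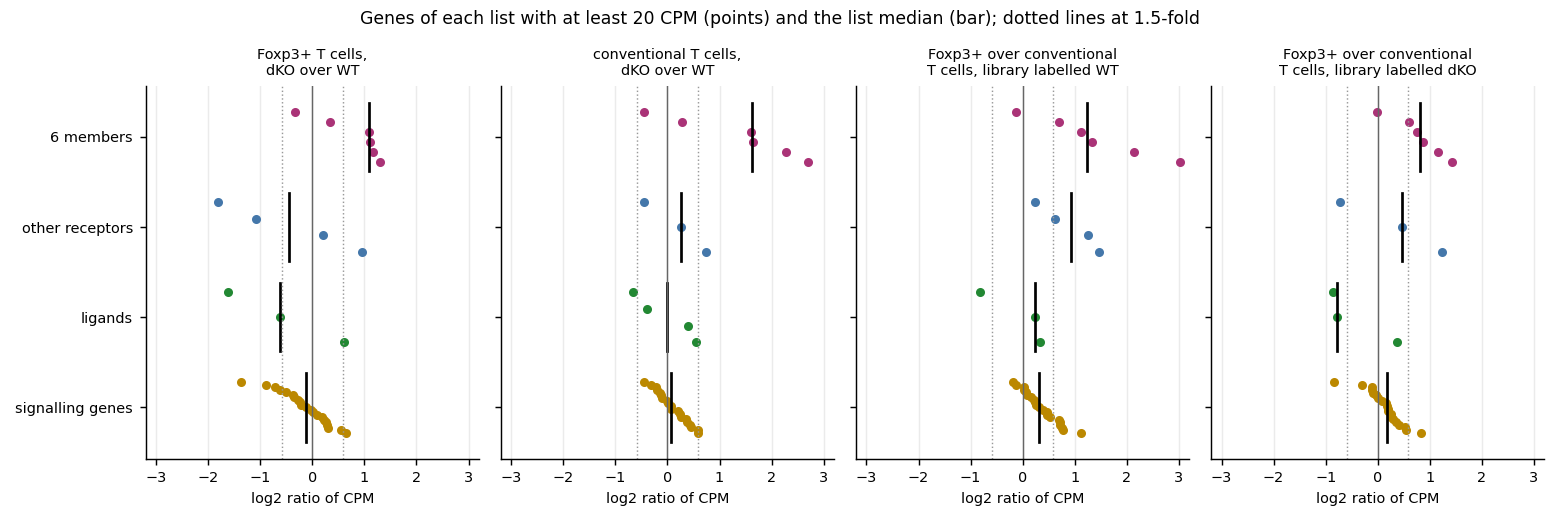
Log2 ratio of CPM of the 6 members, other receptors of the family, ligands and signalling genes with at least 20 CPM (points) and the median of each list (black bar) in 4 comparisons, with dotted lines at 1.5-fold. In Foxp3+ cells, dKO over WT, the median was 1.10 for the members and −0.12 for signalling genes.

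Of 21 other receptors of the family, 4 had at least 20 CPM in Foxp3+ cells, 1 of which was at least 1.5-fold higher and 2 lower in the library labelled dKO, with a median log2 ratio of −0.44, where 9.71% of all genes were higher and 10.2% lower. *Fas*, a death receptor, was at 34.2 and 66.6 CPM, a log2 ratio of 0.96 with a lower bound of 0.47. *Tnfrsf10b*, the mouse TRAIL receptor, was at 52.3 and 14.9 CPM, a ratio of −1.81 (−2.31 to −1.30). *Tnfrsf25*, the receptor DR3 of TL1A, was at 68.4 and 32.1 CPM, a ratio of −1.09 (−1.49 to −0.68). Among these few genes ratios of both directions were thus present. In conventional T cells *Tnfrsf25* was at 44.7 and 53.3 CPM, a ratio of 0.26 (0.07 to 0.44). Of the 3 other receptors with at least 20 CPM in those cells 1 was at least 1.5-fold higher, *Fas* with 0.73 (0.53 to 0.94), and none lower, against 5.96% and 5.16% of all genes.

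The signalling genes downstream differed less between the libraries. Of 22 such genes 21 had at least 20 CPM in Foxp3+ cells, 1 at least 1.5-fold higher and 4 lower in the library labelled dKO, with a median log2 ratio of −0.12, again beside 9.71% and 10.2% of all genes. *Map3k14*, the kinase NIK of the alternative NF-κB pathway, was at 83.6 and 32.5 CPM, a ratio of −1.36 (−1.73 to −0.98), *Traf5* at 57.0 and 30.6 CPM, a ratio of −0.90 (−1.32 to −0.45), and *Birc3*, the ubiquitin ligase cIAP2, at 336 and 205 CPM, a ratio of −0.71 (−0.89 to −0.54). The gene past 1.5-fold in the other direction was *Siva1*, which codes for a protein that binds CD27, at 28.5 and 44.5 CPM, a ratio of 0.64 (0.10 to 1.24). *Traf3*, which holds NIK in check, was at 143 and 211 CPM, 1.47-fold, a ratio of 0.56 (0.31 to 0.81). Of the other TRAF adaptors, *Traf1* had a ratio of 0.22 (0.07 to 0.36), *Traf6* of 0.28 (−0.11 to 0.69) and *Traf2* of −0.28 (−0.75 to 0.21). In conventional T cells none of 20 such genes was past 1.5-fold, where 5.96% of 6275 genes were higher and 5.16% lower. There *Traf1* was at 0.58 (0.51 to 0.65), *Rel* at 0.58 (0.50 to 0.66), *Traf3* at 0.44 (0.32 to 0.57) and *Map3k14* at −0.45 (−0.61 to −0.30).

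Between Foxp3+ and conventional cells of the library labelled WT, 6 of 21 signalling genes were at least 1.5-fold higher in Foxp3+ cells and none lower, where 9.51% and 4.74% of all genes were. They included the NF-κB subunits *Rel*, at 402 against 186 CPM with a log2 ratio of 1.11 (0.96 to 1.27), and *Nfkb1*, with 0.77 (0.66 to 0.88), the inhibitor *Nfkbia*, with 0.76 (0.70 to 0.82), and *Traf1*, with 0.72 (0.57 to 0.86). For the library labelled dKO 1 of 20 was higher, *Traf3* with 0.83 (0.71 to 0.95), and 1 lower, *Map3k14* with −0.84 (−1.09 to −0.60), near the 6.93% and 3.84% of all genes, and *Rel* was at 0.54 (0.46 to 0.62). *Tnfrsf25* was 0.62 (0.24 to 0.97) higher in Foxp3+ cells of the library labelled WT and had a ratio of −0.73 (−0.98 to −0.48) in the library labelled dKO. *Tnf* was lower in Foxp3+ than in conventional cells of both libraries, by log2 ratios of −0.83 (−1.27 to −0.41) and −0.78 (−1.04 to −0.53), and *Ltb* was 0.33 (0.22 to 0.44) and 0.37 (0.32 to 0.42) higher.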

How the data were processed

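Hepatic CD4+ T cells of 1 library per genotype were measured with a 5′ droplet kit, with T cell receptors from the same cells. The authors deposited whole-number UMI counts per gene and cell, made with Cell Ranger 7.0.1 on mm10 per the labels' processing notes, not normalized, of the droplets that its cell calling kept. The receptor tables, as deposited, hold contigs with their UMI counts and clonotypes.

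The filter kept 10556 of 10602 and 17462 of 17645 cells, those in which over 200 genes were found and mitochondrial genes took under 5% of UMIs. No cell had fewer than 500 UMIs. UMIs were summed per class and library and divided by all UMIs of the class (CPM). Intervals are Poisson for CPM, conditional binomial for ratios and Clopper-Pearson for shares. No test was run. Fixed lists held 21 other receptors, 7 ligands and 22 signalling genes. Genes were named from them by the largest absolute log2 ratios, up to 4 per list with at least 50 CPM in a group, and likeness used the 3 genes of highest correlation. Outside this rule, and after their values were seen, *Tnf*, *Lta*, *Siva1*, *Traf1*, *Traf2* and *Traf6* in Foxp3+ cells, *Fas* in conventional cells and *Tnfrsf13b* in plasmacytoid dendritic cells were named, as were the levels of ligands by class and of the Treg markers *Ikzf2* and *Ctla4*. The members and lists were chosen with earlier results of these data known. A class needed 50 cells in a library, and 1 marker gene of the classes is not reported here. Foxp3+ cells were divided after cycling cells were set aside, and counts per gene past 1.5-fold used genes with at least 20 CPM. Doublets were kept. The automatic threshold of Scrublet marked 0 cells in both libraries, so it did not work, and the alternative without doublets removed instead the highest scores and cells with at least 2 TRB chains, 997 and 2487 cells. Positions come from GENCODE M21 and promoter windows from RefSeq, with 6 of 6 genes matched, and no protein sequence was used here.

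The tools were scanpy 1.11.5, scipy 1.17.1, pandas 2.3.3, numpy 2.4.6 and matplotlib 3.10.9 in Python 3.11.15 and, for TMM factors alone, edgeR 4.0.16 in R 4.3.3. On simulated data for Foxp3+ cells of 6144 genes, 200 of them changed, the direction of 100% was recovered and intervals covered 96.5% of the true ratios of changed genes. These data were Poisson counts drawn from the summed profile of both libraries, which is the model the intervals assume. They held no spread between cells, clones or mice, so the simulation checks the computation and not the fit to real libraries. The alternatives were the mean CPM over cells, TMM scaling, other depths, gates, cell filters and gene minimums, removal of doublets, 1 cell per clonotype and class, equal class shares and, chosen after seeing the data, subtraction of the plasmacytoid dendritic level.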

Additional observations from a re-analysis of the deposited data

Results flagged for a closer look

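*Tnfrsf1b* stood out because its ratio between the libraries had opposite directions in different T cell classes, each with a counting interval that left out 0. Its log2 ratio, dKO over WT, was 0.34 in Foxp3+ cells, 0.35 in the cells with *Ikzf2* and *Ctla4*, 0.25 in cytotoxic-type cells and 0.65 in the T cells left in no other class. It was −0.33 in Ifng only cells, −0.62 in Il17 only cells and −0.52 in Cd40lg+ cells. The difference between these classes was not tested, since each genotype has 1 library.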

How the results depend on the processing

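Each genotype is 1 library from 2 pooled mice, so no alternative replaces a replicate, and counting intervals leave out differences between mice, preparation and sequencing. No paired analysis was possible because each genotype has 1 library. The sign of the log2 ratio of *Tnfrsf4*, *Tnfrsf9*, *Tnfrsf18*, *Tnfrsf1b* and *Cd27* was kept in every alternative that gave a value, in Foxp3+ cells, in all T cells and for Foxp3+ over conventional cells. For *Tnfrsf1a*, at most 43 CPM in any T cell class, it was kept in 10 of 12 alternatives in Foxp3+ cells, 13 of 13 in all T cells and, for Foxp3+ over conventional cells, 11 of 12 and 8 of 12. Subtraction of the plasmacytoid dendritic level gave no value for *Tnfrsf1a*. For *Tnfrsf1b*, at 70.0 and 60.5 CPM in plasmacytoid dendritic cells, free RNA and RNA of these cells themselves were not told apart. Its ratios after subtraction depend on that. TMM scaling moved log2 ratios by 0.03 to 0.11 in size. The values that moved past their counting interval, or for counts past 1.5 times, follow, and the cause was not tested.

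With the mean of each cell's CPM, the log2 ratio was for dKO over WT in Foxp3+ cells 1.16 (*Tnfrsf4*), for dKO over WT in all T cells 2.87 (*Tnfrsf9*) and 0.69 (*Tnfrsf1b*), for Foxp3+ over conventional cells in the library labelled dKO 1.08 (*Tnfrsf4*). With T cells taken by a productive TRB contig, the log2 ratio was for dKO over WT in Foxp3+ cells 1.12 (*Tnfrsf4*), 0.87 (*Tnfrsf9*) and 1.03 (*Tnfrsf18*), for dKO over WT in all T cells 2.23 (*Tnfrsf4*), 2.45 (*Tnfrsf9*), 1.68 (*Tnfrsf18*), −0.12 (*Tnfrsf1a*), 0.42 (*Tnfrsf1b*) and 1.55 (*Cd27*), for Foxp3+ over conventional cells in the library labelled WT 3.22 (*Tnfrsf9*), for that in the library labelled dKO 1.23 (*Tnfrsf4*), 1.64 (*Tnfrsf9*), 0.99 (*Tnfrsf18*) and 0.72 (*Cd27*). With Foxp3+ and Ikzf2+Ctla4+ cells joined, the log2 ratio was for dKO over WT in Foxp3+ cells 1.45 (*Tnfrsf4*) and 1.39 (*Tnfrsf9*), for Foxp3+ over conventional cells in the library labelled WT 1.96 (*Tnfrsf4*), 2.70 (*Tnfrsf9*) and 1.17 (*Tnfrsf18*). With 1 cell per clonotype and class, the log2 ratio was for dKO over WT in Foxp3+ cells 1.10 (*Tnfrsf4*), 0.88 (*Tnfrsf9*) and 0.90 (*Tnfrsf18*), for dKO over WT in all T cells 1.90 (*Tnfrsf4*), 2.08 (*Tnfrsf9*), 1.53 (*Tnfrsf18*), 0.46 (*Tnfrsf1b*) and 1.19 (*Cd27*), for Foxp3+ over conventional cells in the library labelled WT 1.58 (*Tnfrsf18*), for that in the library labelled dKO 1.22 (*Tnfrsf4*), 1.68 (*Tnfrsf9*), 0.99 (*Tnfrsf18*) and 0.95 (*Cd27*). With thinning to 1000 UMIs before the classes were set, the log2 ratio was for dKO over WT in Foxp3+ cells 1.29 (*Tnfrsf9*) and 0.31 (*Tnfrsf1a*), for dKO over WT in all T cells 2.84 (*Tnfrsf9*) and 0.70 (*Tnfrsf1b*), for Foxp3+ over conventional cells in the library labelled WT 1.99 (*Tnfrsf4*) and 2.70 (*Tnfrsf9*), for that in the library labelled dKO 1.04 (*Tnfrsf4*) and 1.32 (*Tnfrsf9*). With the mean class shares of both libraries, the log2 ratio was for dKO over WT in all T cells 1.64 (*Tnfrsf4*), 1.68 (*Tnfrsf9*), 1.35 (*Tnfrsf18*), 0.21 (*Tnfrsf1b*) and 1.38 (*Cd27*). With the plasmacytoid dendritic level subtracted, chosen after seeing the data, the log2 ratio was for dKO over WT in all T cells 2.51 (*Tnfrsf4*), 2.08 (*Tnfrsf18*), 1.004 (*Tnfrsf1b*) and 1.94 (*Cd27*), for Foxp3+ over conventional cells in the library labelled WT 2.41 (*Tnfrsf4*), 3.36 (*Tnfrsf9*), 1.64 (*Tnfrsf18*) and 1.08 (*Tnfrsf1b*), for that in the library labelled dKO 1.31 (*Tnfrsf4*), 1.65 (*Tnfrsf9*), 0.99 (*Tnfrsf18*) and 1.002 (*Tnfrsf1b*). With TMM scaling, the log2 ratio was for Foxp3+ over conventional cells in the library labelled dKO 1.06 (*Tnfrsf4*), 1.33 (*Tnfrsf9*) and 0.77 (*Tnfrsf18*). With at least 1000 UMIs per cell, the log2 ratio was for Foxp3+ over conventional cells in the library labelled dKO 1.28 (*Tnfrsf4*), 1.58 (*Tnfrsf9*), 0.98 (*Tnfrsf18*) and 0.86 (*Tnfrsf1b*). Without predicted doublets, the log2 ratio was for Foxp3+ over conventional cells in the library labelled dKO 1.30 (*Tnfrsf4*), 1.62 (*Tnfrsf9*), 0.99 (*Tnfrsf18*) and 0.76 (*Cd27*). With at least 2 Foxp3 UMIs for Foxp3+, the log2 ratio was for Foxp3+ over conventional cells in the library labelled dKO 0.999 (*Tnfrsf4*), 1.18 (*Tnfrsf9*), 0.74 (*Tnfrsf18*), 0.66 (*Tnfrsf1b*) and 0.50 (*Cd27*).

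The share of Foxp3+ cells with a UMI in the libraries labelled WT and dKO, thinned to 2000 UMIs, was 66.2% and 88.9% (*Tnfrsf4*), 49.8% and 70.7% (*Tnfrsf9*), 56.3% and 83.5% (*Tnfrsf18*), 5.16% and 3.45% (*Tnfrsf1a*), 38.0% and 41.7% (*Tnfrsf1b*) and 16.4% and 34.0% (*Cd27*), and unthinned 68.9% and 87.4% (*Tnfrsf4*), 49.8% and 70.3% (*Tnfrsf9*), 57.9% and 81.0% (*Tnfrsf18*), 5.74% and 3.78% (*Tnfrsf1a*), 41.4% and 42.6% (*Tnfrsf1b*) and 22.7% and 32.9% (*Cd27*). Among genes with at least 50 CPM, those past 1.5-fold, higher and lower, were 339 and 347 for dKO over WT in Foxp3+ cells, 208 and 177 for dKO over WT in conventional cells, 316 and 106 for Foxp3+ over conventional cells of the library labelled WT and 266 and 138 for the same in the library labelled dKO. Among genes with a UMI in both groups, those past 1.5-fold, higher and lower, were 1680 and 2915 for dKO over WT in Foxp3+ cells, 2040 and 2468 for dKO over WT in conventional cells, 2940 and 1420 for Foxp3+ over conventional cells of the library labelled WT and 2249 and 1749 for the same in the library labelled dKO.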

Other observations

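Some T cells had little RNA of ribosomal proteins, under 8% of their UMIs, 137 and 110 in the libraries labelled WT and dKO. In them *Tnfrsf1b* was at 310 and 655 CPM, against 166 and 254 CPM over all T cells, a log2 ratio between the libraries of 1.08 (0.63 to 1.52). *Tnfrsf9* was at 79.2 and 986 CPM, a ratio of 3.64 (2.99 to 4.35), and *Tnfrsf18* at 62.0 and 797 CPM, a ratio of 3.68 (2.95 to 4.50). These cells had median depths of 1678 and 908 UMIs. The Treg genes *Foxp3* (55.1 and 434 CPM), *Ikzf2* (810 and 3983 CPM) and *Ctla4* (562 and 3084 CPM) differed in the same direction in them. Their endothelial markers summed to 251 and 63.1 CPM (95.2 and 59.1 CPM over all T cells) and genes of the T cell receptor complex to 1850 and 3542 CPM, and what part these have in the ratios was not tested.

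Outside T cells, *Tnfrsf13b*, which codes for the BAFF and APRIL receptor TACI, was at 176 CPM (164 to 189) and 142 CPM (136 to 149) in plasmacytoid dendritic cells. In the library labelled dKO the remaining clones of at least 10 cells in the Foxp3+ and Ikzf2+Ctla4+ classes had *Tnfrsf4* at 1872 CPM (34 cells), 2198 CPM (20 cells), 2045 CPM (12 cells) and 2312 CPM (10 cells), and their *Tnfrsf18* lay between 1237 and 1682 CPM, beside 1047 CPM in smaller clones.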
